A study of Mus musculus with 2 samples.

Results

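Ltc4s, Cysltr1 and Anxa1 are 3 genes of lipid-mediator signaling that were followed here across the cells of an implanted mouse pancreatic tumor. They are 3 of the 2000 genes in the deposited table of scaled expression and were chosen by name, with their earlier measured differences between the libraries known, so their levels are given as a description and carry no test. The tumors were grown in the pancreas of C57/BL6 mice from the KPC organoid line MT4, a primary pancreatic adenocarcinoma line, and were taken at day 14. Live cells, sorted by exclusion of DAPI, went into 2 droplet single-cell libraries. One library came from Ahr fl/fl mice, whose Ahr gene carries loxP sites but no Cre, and held 5196 cells. The other came from Ahr fl/fl mice that also carry LysM-Cre, labelled Ahr cKO, and held 4577 cells. Ahr encodes the aryl hydrocarbon receptor, a ligand-activated transcription factor. LysM-Cre acts mainly in neutrophils, macrophages and part of the monocytes. Whether the other cells of the cKO mice keep the gene was not tested. Each library pooled the tumors of 3 mice, which gives 1 sample per genotype: no test between the genotypes was possible, and every interval below covers counting error only.

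Leukotrienes are made from arachidonic acid, which 5-lipoxygenase and its activating protein turn into leukotriene A4. Leukotriene C4 synthase, the product of Ltc4s, joins leukotriene A4 to glutathione and so makes the first of the cysteinyl leukotrienes, while leukotriene A4 hydrolase, from Lta4h, makes leukotriene B4 from the same precursor. Cysltr1 encodes a G-protein-coupled receptor for the cysteinyl leukotrienes, with leukotriene D4 as its strongest natural ligand. Anxa1 encodes annexin A1, a calcium-dependent phospholipid-binding protein that is abundant in neutrophils and, once outside the cell, signals through formyl peptide receptors such as that of Fpr2. It is known for restraining inflammation.

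The genes lie apart in the genome. On the GRCm38 build, Ltc4s is a protein-coding gene (ENSMUSG00000020377.15) at chr11:50236461-50238616, Cysltr1 (ENSMUSG00000052821.3) is at chrX:106574346-106603679 and Anxa1 (ENSMUSG00000024659.15) is at chr19:20373428-20390944, all on the minus strand. The RefSeq promoter windows (GRCm38.p6) of Ltc4s, chr11:50238483-50238782, and Anxa1, chr19:20390622-20390921, are shown because the study deleted a transcription factor and because these genes were found in different myeloid cells. Each runs 5′ to 3′ on the minus strand from 250 bases before the RefSeq start of the gene (base 50238532 for Ltc4s and 20390671 for Anxa1) through the first 50 bases of the gene. The gene coordinates above come from another annotation, GENCODE, whose starts lie further out, so part of the Ltc4s window and all of the Anxa1 window fall inside the GENCODE genes. Capitals mark the letters GAGGAA on either strand, the core of the PU.1 motif of myeloid genes.
Ltc4s: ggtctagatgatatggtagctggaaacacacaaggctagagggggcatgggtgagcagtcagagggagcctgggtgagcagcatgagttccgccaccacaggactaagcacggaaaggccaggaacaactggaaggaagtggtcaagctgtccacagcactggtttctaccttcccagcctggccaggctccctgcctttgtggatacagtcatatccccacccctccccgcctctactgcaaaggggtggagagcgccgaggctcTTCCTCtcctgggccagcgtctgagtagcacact
Anxa1: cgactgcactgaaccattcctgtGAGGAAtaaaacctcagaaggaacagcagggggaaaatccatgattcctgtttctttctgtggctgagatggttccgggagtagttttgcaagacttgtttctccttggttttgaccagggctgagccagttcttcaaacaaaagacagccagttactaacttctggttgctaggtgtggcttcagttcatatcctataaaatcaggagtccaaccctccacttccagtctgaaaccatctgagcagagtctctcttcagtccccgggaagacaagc
The core of the AHR motif, GCGTG, was searched on both strands and was in neither window, against 32.4% of 32851 RefSeq promoter windows of the same length. GAGGAA occurred once in each window, at positions 267 to 272 on the opposite strand for Ltc4s and at positions 24 to 29 on the printed strand for Anxa1, counted from the first base shown, and 28.3% of all windows hold it. These matches describe letters in the window and not binding.

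Values are scaled, in units close to 1 SD of a gene over all cells, and were cut off at 10 by the authors. The fl/fl values of each gene had a common floor, called the zero level here, and a cell above it was counted as positive. The library labelled cKO had lost this floor: of its cells 58.8% lay exactly at the zero level of Ltc4s, 37.7% at that of Cysltr1 and 0.961% at that of Anxa1, and 11.7%, 29.2% and 21.3% lay below it. Shares of positive cells are therefore given for the fl/fl library. Differences between the libraries are given as deposited and, where under 40% of cells were positive, with an estimate of this local shift removed. They are differences of scaled values and not of expression. Total UMIs per cell are not known, and the number of the 2000 genes above zero, a median of 108 per fl/fl cell, stands in for depth.

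The cells formed clusters that were named X-like from markers, with 9 of 9 measured macrophage markers positive in over 10% of Macrophage-like cells and 10 of 10 in both the Neutrophil-like and the Neutrophil precursor-like cells. For the DC-like cells (dendritic cells) it was 12 of 21 measured markers over 3 DC subtypes and plasmacytoid cells. The libraries shared 656 cell barcodes, 12.6% of fl/fl and 14.3% of cKO cells, and 94.8% of the shared pairs fell in the same cluster. In the Monocyte-like cells 260 of 440 fl/fl and 259 of 391 cKO cells had a shared barcode, and in the unnamed cluster led by Vim, Atf3 and Fth1 it was 322 of 341 and 325 of 327, so the members' values in those cells are given with and without them. Macrophage-like, Neutrophil-like and Neutrophil precursor-like cells had a shared barcode in at most 4.38% of cells of either library. DC-like cells had one in 9.34% of fl/fl and 16.0% of cKO cells. Most of these were in the cluster led by H2-DMb1, Cd209a and Clec10a, with 36 of 177 fl/fl and 32 of 71 cKO cells. The values of DC-like cells below include them. Why barcodes were shared was not tested. Ahr itself was not lower in the Macrophage-like cells of the library labelled cKO, with a mean scaled value of 0.092 ± 1.18 (SD over 509 cells) in fl/fl and 0.25 ± 1.10 (SD over 353 cells) in cKO, a difference of 0.16 that was -0.074 with the shift removed. In Neutrophil-like cells it was above zero in 2 of 283 fl/fl cells. The labels do not say which part of Ahr was deleted, and a tag outside that part checks nothing.

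Ltc4s was found mainly in Macrophage-like cells and in part of the DC-like cells. Of 189 positive fl/fl cells, 119 (63.0%) were Macrophage-like, a class that made up 9.80% of the fl/fl cells, and 33 (17.5%) were DC-like. In the Macrophage-like cells 23.4% were positive (95% exact binomial interval 19.8 to 27.3%). Within them the cluster led by Arg1, Fn1 and AA467197 had 84 of 256 positive cells, 32.8% (27.1 to 38.9%), and the cluster led by the complement genes C1qa, C1qc and C1qb had 35 of 253, 13.8% (9.83 to 18.7%). Arg1 encodes arginase 1, and C1qa to C1qc encode the subunits of complement C1q. The gap did not close in cells of like depth: with 100 to 300 genes above zero, 45 of 118 Arg1-led cells (38.1%) and 13 of 91 C1q-led cells (14.3%) were positive. Ltc4s took part in the clustering. When all 3 genes were left out of it, the matching clusters, again led by Arg1, Fn1 and AA467197 and by the C1q genes, had 34.6% of 228 and 13% of 323 cells positive.

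**Figure D1:**
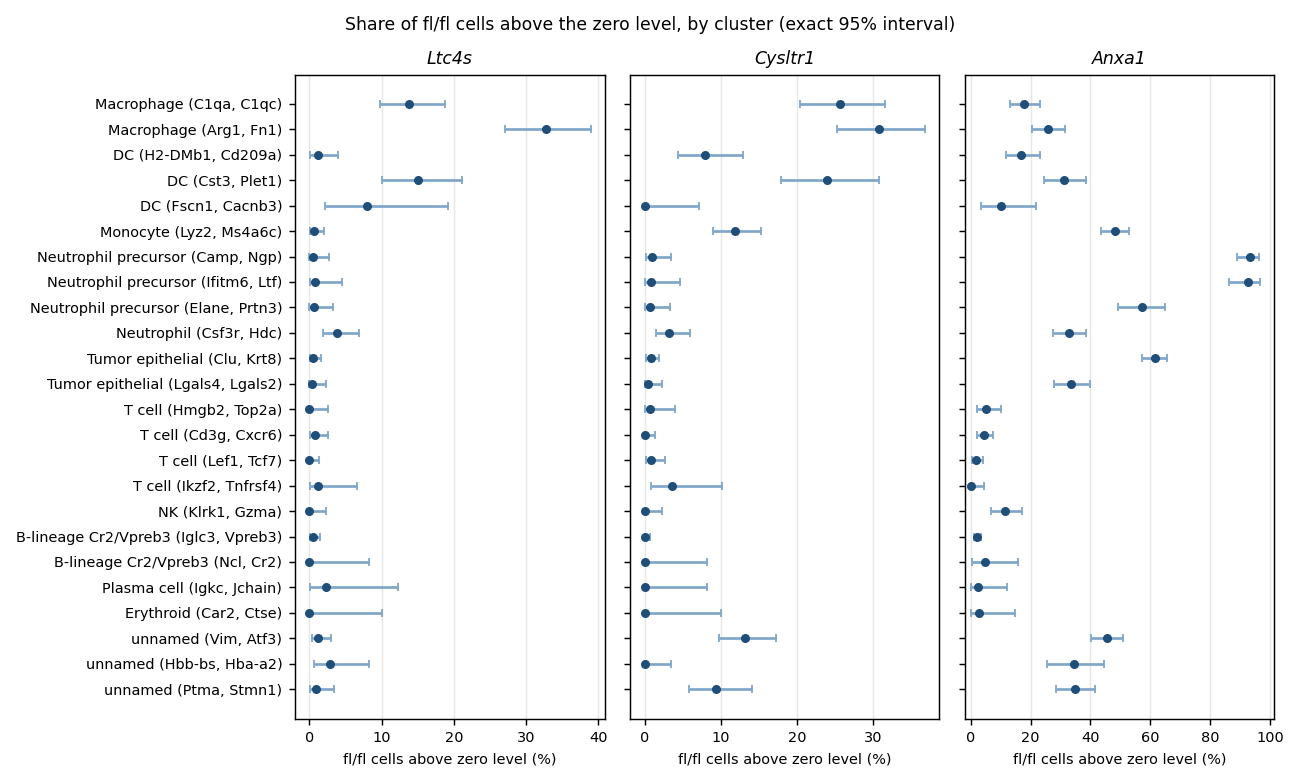
Share of fl/fl cells above the zero level (horizontal axis, percent) for each gene in each cluster of at least 20 fl/fl cells, grouped by class and named by 2 leading genes. Points are shares and bars are exact 95% intervals; Ltc4s is highest in the Arg1-led Macrophage-like cluster at 32.8%, Cysltr1 in both Macrophage-like clusters, and Anxa1 at 93.2% and 92.5% in 2 Neutrophil precursor-like clusters.

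Among DC-like cells Ltc4s was above zero in 27 of 180 cells (15%, interval 10.1 to 21.1%) of the cluster led by Cst3, Plet1 and H2-Ab1, and in 2 of 177 cells of the cluster led by H2-DMb1, Cd209a and Clec10a. With 100 to 300 genes above zero it was 15 of 76 (19.7%, 11.5 to 30.5%) and 2 of 58 (3.45%, 0.42 to 11.9%), and these intervals overlap slightly. The small cluster led by Fscn1, Cacnb3 and Ccr7, genes of migratory dendritic cells, had 4 of 50 positive cells. Outside these classes fewer cells were positive: 11 of 283 Neutrophil-like, 3 of 440 Monocyte-like (2 of 180 without the shared barcodes), 3 of 771 T cell-like, 3 of 620 B-lineage and 4 of 778 Tumor epithelial-like cells. Neutrophil-like cells had few genes above zero, and with 100 to 300 genes 6 of 62 (9.68%, 3.63 to 19.9%) were positive, which overlaps the 12.3% (7.54 to 18.5%) of DC-like cells at that depth. The 0 of 159 NK-like cells allow a share of up to 1.89% by a limit of 3 counts and 2.29% by the exact interval. Mast cells, basophils and eosinophils are known sources of Ltc4s, so their markers were looked up. In the Macrophage-like cells Cpa3, Ms4a2, Mcpt8 and Gata2 were each above zero in 0 of 509 cells, Kit was in 4 and Hdc in 5. In DC-like cells Kit was above zero in 42 of 407, 6 of them Ltc4s-positive, while Cpa3, Ms4a2, Mcpt8 and Gata2 were in 0. In Neutrophil-like cells Hdc was above zero in 172 of 283, 8 of them Ltc4s-positive, and each other marker in at most 3. Over all fl/fl cells 7 had at least 2 of the 5 markers other than Hdc, and none of the 7 was positive for Ltc4s. Of 6 listed eosinophil markers 2 were measured: Il5ra was above zero in 0 and Ear2 in 4 of the 509 Macrophage-like cells, while in DC-like cells Ear2 was above zero in 28 of 407, and 8 of those 28 were also positive for Ltc4s.

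Cysltr1, the receptor, was spread more widely over the same myeloid cells. Of 343 positive fl/fl cells 144 (42.0%) were Macrophage-like, where 28.3% of cells were positive (24.4 to 32.4%). The Arg1-led and C1q-led clusters overlapped in their intervals, with 79 of 256 (30.9%) and 65 of 253 (25.7%) positive, and at like depth they had 39.0% of 118 and 30.8% of 91 cells. Next came the Cst3-led DC-like cluster with 43 of 180 (23.9%, interval 17.9 to 30.8%), whose interval overlaps that of the C1q-led cells. The Cd209a-containing DC-like cluster had 14 of 177 (7.91%), and the Fscn1-led one had 0 of 50. The Cst3-led cells had more genes above zero than the Cd209a-containing ones (medians of 130.5 and 71), and with 100 to 300 genes their shares were 28.9% (19.1 to 40.5%) and 19.0% (9.87 to 31.4%), with overlapping intervals. Monocyte-like cells were positive in 52 of 440 (11.8%, 8.95 to 15.2%). That share was 18.9% (13.5 to 25.4%) of the 180 cells with a barcode of their own and 6.92% (4.15 to 10.7%) of the 260 with a shared one. In the unnamed Vim-led cluster it was 45 of 341 (13.2%), of which 43 were among the 322 shared-barcode cells and 2 among the other 19. An unnamed cycling cluster had 20 of 213 (9.39%). Neutrophil-like cells had 9 of 283 (3.18%), Neutrophil precursor-like cells 4 of 493, and the lymphoid classes at most 6 of 771.

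The receptor was detected more often in Macrophage-like cells positive for the synthase, and those cells also had more genes detected. Cysltr1 was above zero in 51 of 119 Ltc4s-positive Macrophage-like cells (42.9%, 33.8 to 52.3%) and in 93 of 390 Ltc4s-negative ones (23.8%, 19.7 to 28.4%), while the median number of genes above zero was 286 and 112.5. With 100 to 300 genes above zero the shares were 41.4% (28.6 to 55.1%) and 33.1% (25.7 to 41.2%), with overlapping intervals. In the Arg1-led cluster at that depth they were 40% and 38.4%, and in the C1q-led cluster 6 of 13 (46.2%) and 22 of 78 (28.2%). No difference was detectable at this depth. For Anxa1 the split at like depth was wider than for Cysltr1, but here too the intervals overlap, slightly. Anxa1 was above zero in 22 of 58 Ltc4s-positive Macrophage-like cells (37.9%, 25.5 to 51.6%). It was above zero in 29 of 151 Ltc4s-negative ones (19.2%, 13.3 to 26.4%), and the median number of genes was 254 and 206.

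**Figure D2:**
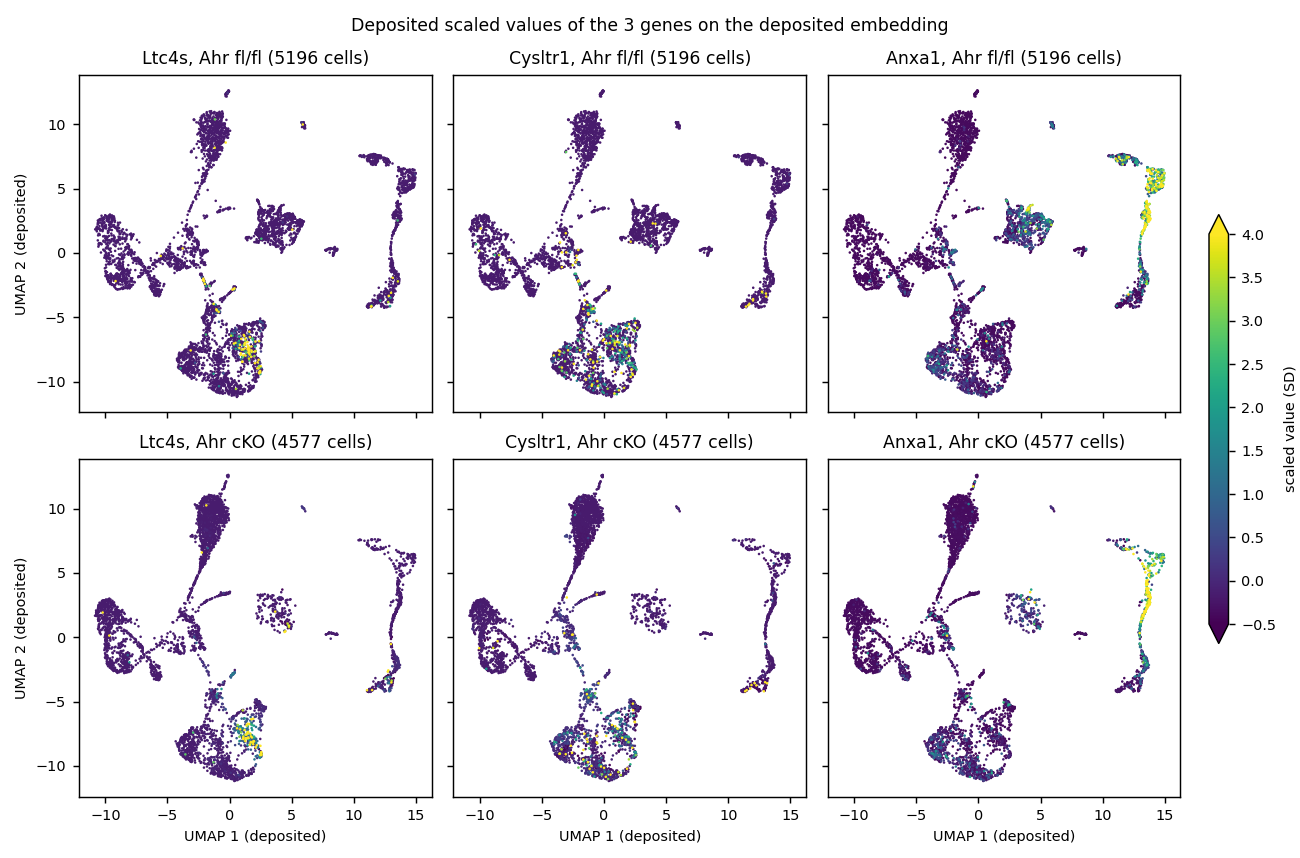
Deposited UMAP coordinates of all cells, coloured by the deposited scaled value (color scale -0.5 to 4 SD) of each gene, with the 5196 fl/fl cells above and the 4577 cKO cells below. High Ltc4s and Cysltr1 values lie in the myeloid group at the bottom, where 63.0% of Ltc4s-positive fl/fl cells are Macrophage-like, and high Anxa1 values lie on the neutrophil arm at the right.

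Anxa1 was the most widely detected of the genes, in 1641 fl/fl cells (31.6%), and it was highest in developing neutrophils. Neutrophil precursor-like cells were positive in 399 of 493 (80.9%, 77.2 to 84.3%), against 93 of 283 mature Neutrophil-like cells (32.9%, 27.4 to 38.7%). The clusters differed in granule genes, which developing neutrophils switch on in a known order. In the cluster led by Elane, Prtn3 and Mpo, proteins of the early primary granules, 95 of 166 cells were positive (57.2%) and the mean scaled value was 0.56. In the cluster led by Camp, Ngp and Chil3, of which Camp and Ngp belong to the later secondary granules, it was 193 of 207 (93.2%) and 2.44. The cluster led by Ifitm6, Ltf and Lcn2 had 111 of 120 (92.5%) and 3.29, and Anxa1 was itself among that cluster's leading genes. S100a8 and S100a9, from the marker list of the Neutrophil-like cells, were among the leading genes of this and the Camp-led cluster. In the mature cluster led by Csf3r, Hdc and Ifitm1 the mean was 0.12. For cells with 100 to 300 genes above zero 32 of 52 Elane-led, 40 of 42 Camp-led, 57 of 57 Ifitm6-led and 24 of 62 mature cells were positive, where the intervals of the Camp-led and Ifitm6-led clusters overlap, as do those of the Elane-led and mature ones.

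Fpr2 encodes a receptor through which annexin A1 acts. Like the mean of Anxa1, Fpr2 was highest in the Ifitm6-led cluster and lower in the mature one. It was above zero in 0 of 166 Elane-led cells, which allows a share of up to 1.81% by a limit of 3 counts and 2.20% by the exact interval, in 46 of 207 Camp-led cells (22.2%), 68 of 120 Ifitm6-led cells (56.7%) and 54 of 283 mature cells (19.1%). Of the Fpr2-positive cells 45 of 46 (97.8%), 67 of 68 (98.5%) and 31 of 54 (57.4%) were also Anxa1-positive in the last 3 clusters, in that order. Among all cells of these clusters 93.2%, 92.5% and 32.9% were Anxa1-positive. The overlap was not matched for depth.

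Outside the neutrophil lineage the classes with the highest shares were the Tumor epithelial-like and Monocyte-like cells. Tumor epithelial-like cells were positive in 411 of 778 (52.8%, 49.3 to 56.4%), with 61.5% in the cluster led by Clu, Krt8 and Krt18 and 33.6% in the cluster led by Lgals4 and Lgals2. The former had more genes above zero (medians of 203 and 112), and with 100 to 300 genes the shares were 44.4% (37.9 to 51.0%) and 41.7% (33.4 to 50.4%), with overlapping intervals. Monocyte-like cells were positive in 212 of 440 (48.2%), and in 84 of 180 (46.7%) without the shared barcodes. The Vim-led unnamed cluster had 155 of 341 (45.5%), and 6 of 19 without the shared barcodes. DC-like cells had 91 of 407 (22.4%), Macrophage-like cells 111 of 509 (21.8%), NK-like cells 18 of 159 (11.3%), T cell-like cells 24 of 771 (3.11%) and B-lineage cells 15 of 620 (2.42%). The positive values differed in size as well as number. Only 14 of the Macrophage-like cells (2.75%) were at least 1 SD above the zero level, while 73.6% of Neutrophil precursor-like cells were.

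Over 24 clusters with at least 20 fl/fl cells, Pearson's r of cluster means was 0.92 for Ltc4s with Arg1, AA467197 and Mmp12, and 0.91 with Slc7a2 and Ccl24. Mmp12 encodes macrophage elastase and Slc7a2 a cationic amino acid transporter. For Cysltr1 the closest were Mpeg1 at 0.90, which encodes perforin-2, then Slamf8, Anpep, Spint1 and, at 0.85, Tbxas1, the thromboxane synthase. For Anxa1 they were Cd177 and Lcn2 at 0.98, both neutrophil genes, then Itgb2l, B230208H11Rik and Adpgk. Ltc4s and Cysltr1 had r = 0.65 with each other, and Anxa1 had -0.14 with Ltc4s and -0.21 with Cysltr1. The clusters share a library and were made from these genes, so the values are a description.

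Between the libraries, Ltc4s had a higher deposited mean in the Macrophage-like cells of the library labelled cKO, but not once the estimated shift was removed. The mean was 0.83 ± 2.43 (SD over 509 cells) in fl/fl and 1.26 ± 2.48 (SD over 353 cells) in cKO, a difference of 0.43 that 7 of 2000 genes reached, Ltc4s included. Of all genes 7.75% were at least 0.1 higher in cKO in this class, and this contrast was known when Ltc4s was chosen. With the estimated shift of 0.47 removed the difference was -0.045, and it was -0.10 with a second form of the estimate. The shares of cells at least 1 SD above the zero level were then 17.9% (14.6 to 21.5%) in fl/fl and 18.4% (14.5 to 22.9%) in cKO. The shift was estimated from the cKO values themselves, so a rise in most cKO cells would be subtracted with it. The values with the shift removed, and this cKO share, cannot tell a shift from such a rise. The deposited difference was larger in the Arg1-led cluster, with means of 1.45 in 256 fl/fl cells and 2.26 in 181 cKO cells. The median cell was at -0.15, the zero level, in fl/fl and at 1.06 in cKO, where the lower quartile was 0.42. The difference there was 0.81 as deposited and -0.074 with a mean shift of 0.88 removed. In the C1q-led cluster the deposited difference was 0.007. With the 3 genes left out of the clustering the deposited differences were 0.62 in the Arg1-led and 0.18 in the C1q-led cluster. Values were cut off at 10 in 19 fl/fl and 11 cKO Macrophage-like cells. The shift is subtracted from cKO values only, so the 11 fall below 10 and the 19 do not, which lowers the cKO mean.

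**Figure D3:**
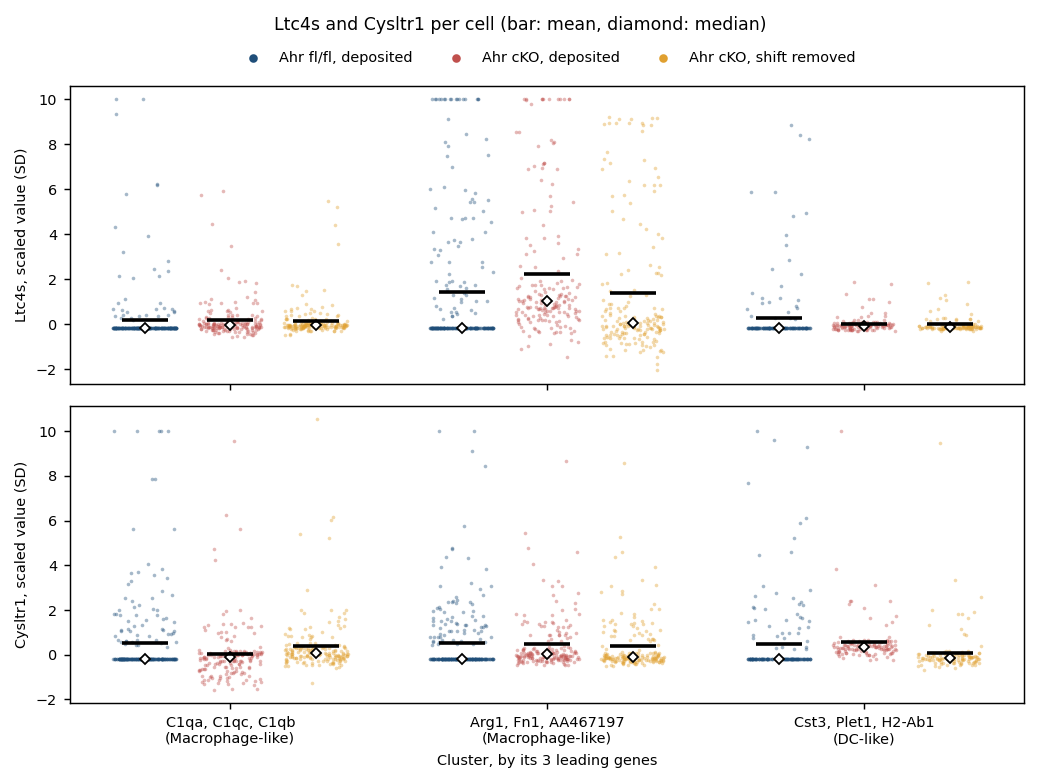
Scaled value per cell (vertical axis, SD) of Ltc4s and Cysltr1 in 3 clusters, for fl/fl as deposited, cKO as deposited and cKO with the estimated shift removed; bars are means and diamonds medians. In the Arg1-led cluster the bulk of deposited cKO cells sits above the fl/fl zero level of Ltc4s, with a median of 1.06, and in the C1q-led cluster many cKO values of Cysltr1 lie below its zero level.

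In DC-like cells Ltc4s was lower in the library labelled cKO as deposited by a difference of -0.050, and -0.16 with the shift removed, when 2.21% of the genes with an estimate were at least 0.1 lower. The Cst3-led cluster had means of 0.29 in 180 fl/fl and 0.031 in 119 cKO cells, -0.25 as deposited and -0.29 with the shift removed. Its shares at least 1 SD above the zero level were 10.6% (6.48 to 16.0%) in fl/fl. With the shift removed they were 5.04% (1.87 to 10.7%) in cKO, an overlapping interval. In the Fscn1-led cluster the deposited difference was 0.49 and that with the shift removed -0.39, over 50 and 22 cells. At least 1 SD above the zero level were 4 of 50 fl/fl cells (2.22 to 19.2%). With the shift removed it was 0 of the 22 cKO cells (0 to 15.4%), and the intervals overlap. A mean shift of 0.88 was subtracted there from cKO values of 0.14 to 1.49. In Tumor epithelial-like cells the values rest on few cells: 5 of 182 cKO cells were at least 1 SD above the zero level, all of them in the Lgals4-led cluster, and 2 of 778 fl/fl cells were.

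Cysltr1 had a lower mean in the Macrophage-like cells of the library labelled cKO in each form of the values. The deposited median was higher in cKO, at -0.18 in fl/fl, which is the zero level, and -0.035 in cKO. In the C1q-led cluster the deposited medians were -0.18, again the zero level, and -0.11. Most fl/fl cells were at that level, so the medians show only where the cKO values lie against it. Values were cut off at 10 in 7 fl/fl and 0 cKO Macrophage-like cells. The means were 0.53 ± 1.68 (SD over 509 cells) in fl/fl and 0.25 ± 1.27 (SD over 353 cells) in cKO, a difference of -0.28 that 6 of 2000 genes, Cysltr1 included, reached downward; 4.30% of all genes were at least 0.1 lower. With the shift removed the difference was -0.15, and 1.41% of the genes with an estimate were at least 0.1 lower, and it was -0.21 in the second form. The share of cells at least 1 SD above the zero level was 22.2% (18.7 to 26.1%) in fl/fl and 18.7% (14.8 to 23.2%) in cKO, and these intervals overlap. The deposited difference was larger in the C1q-led cluster, with means of 0.53 and 0.027, a difference of -0.51 as deposited and -0.14 with the shift removed. In the Arg1-led cluster the difference was -0.068 as deposited and -0.16 with the shift removed. With the 3 genes left out of the clustering the deposited difference was 0.040 in the Arg1-led cluster, so its sign turned, and -0.42 in the C1q-led one. In DC-like cells the sign changed: 0.24 in fl/fl and 0.42 in cKO as deposited, a difference of 0.18 where 8.90% of genes were at least 0.1 higher, and -0.088 with the shift removed. Its Cst3-led cluster went from 0.070 as deposited to -0.40 with the shift removed. In Monocyte-like cells the Cysltr1 difference was -0.050 as deposited and -0.046 with the shift removed. Without the shared barcodes it was -0.019 as deposited and -0.26 with the shift removed.

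Anxa1 had its largest difference in the Neutrophil precursor-like cells, where the makeup of the class differed between the libraries. The mean was 2.01 ± 1.96 (SD over 493 cells) in fl/fl and 2.79 ± 2.15 (SD over 268 cells) in cKO. The difference of 0.78 was reached by 4 of 2000 genes, Anxa1 included, and 5.10% of all genes were at least 0.1 higher. The Anxa1-rich Ifitm6-led cluster made up 24.3% of these cells in fl/fl and 53.0% in cKO, while the Elane-led cluster made up 33.7% and 16.0%. With the clusters weighted as in fl/fl the difference was 0.13. Within clusters the fl/fl and cKO means were 0.56 and 0.53 (Elane-led, 166 and 43 cells), 2.44 and 2.58 (Camp-led, 207 and 83 cells), and 3.29 and 3.61 (Ifitm6-led, 120 and 142 cells). The medians were 0.19 and 0.13, 2.34 and 2.18, and 3.16 and 3.67, so the sign in the Camp-led cluster depends on the measure. No shift could be estimated for the class because too few cells were at zero. In mature Neutrophil-like cells the means were 0.12 ± 0.91 (SD over 283 cells) and 0.25 ± 0.93 (SD over 251 cells), 0.13 as deposited, beside 5.25% of genes at least 0.1 higher, and -0.097 with the shift removed. Fpr2 also had a higher mean in cKO Neutrophil precursor-like cells, by 0.59, but this value was not weighted for the makeup of the class. In fl/fl Fpr2 was above zero in 0 of 166 Elane-led and 68 of 120 Ifitm6-led cells. With 1 pooled library per genotype, a difference in the cells captured and a difference in the mice cannot be told apart.

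**Figure D4:**
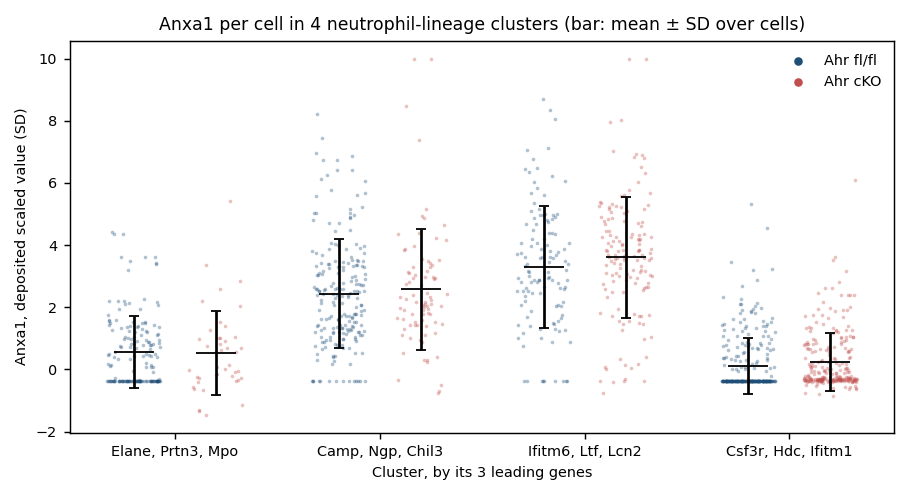
Deposited scaled value of Anxa1 per cell (vertical axis, SD) in 4 neutrophil-lineage clusters named by their leading genes, fl/fl in blue and cKO in red; bars are mean ± SD over cells. Means go from 0.56 to 2.44 and 3.29 and back to 0.12 across the fl/fl clusters, and within each cluster the libraries overlap widely.

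In the other classes with at least 50 cells in each library Anxa1 differed little: 0.001 in Macrophage-like cells, 0.045 in DC-like cells, 0.066 in Tumor epithelial-like cells (0.17 in fl/fl and 0.24 in cKO, n = 778 and 182 cells) and -0.035 in Monocyte-like cells, or -0.13 without the shared barcodes.

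**Figure D5:**
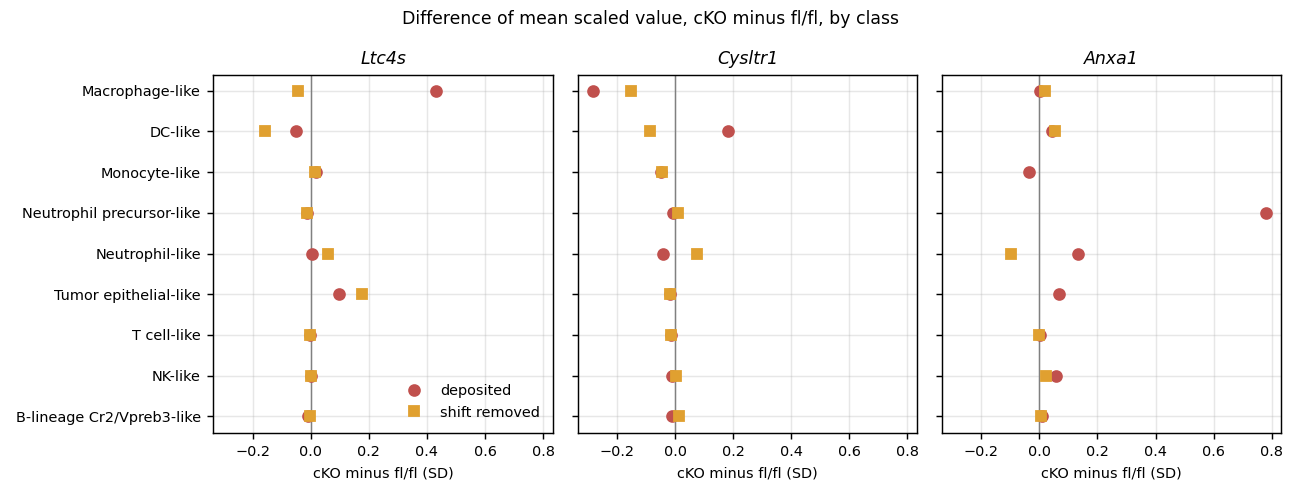
Difference of the mean scaled value, cKO minus fl/fl (horizontal axis, SD), for each gene in 9 classes with at least 50 cells in each library, as deposited (circles) and with the shift removed (squares, where it could be estimated). For Ltc4s in Macrophage-like cells the circle is at 0.43 and the square at -0.045, and for Cysltr1 both are below 0.

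The other measured genes of leukotriene synthesis differed in where they were detected. Of 8 listed synthesis genes, 4 were in the table. Mgst2, a microsomal glutathione transferase that can also make leukotriene C4, was above zero in 206 of 493 Neutrophil precursor-like cells (41.8%) but in 4 of 509 Macrophage-like cells (0.79%), the reverse of Ltc4s with 3 of 493 and 119 of 509. Lta4h, of the leukotriene B4 branch, was above zero in 46.0% of Neutrophil precursor-like, 11.8% of Macrophage-like and 2.83% of mature Neutrophil-like cells. Mgst3, a related transferase, was above zero in 24 of 35 Erythroid-like (68.6%) and 268 of 778 Tumor epithelial-like cells (34.4%). Of 6 listed breakdown genes only Ptgr1, which inactivates leukotriene B4, was in the table, above zero in 20.7% of Neutrophil precursor-like cells. Of 10 listed receptors Cysltr1 and Fpr2 were measured. Alox5 and Alox5ap, which the pathway starts with, were not among the genes analysed here.

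In Macrophage-like cells 2 of the 4 synthesis genes were at least 0.1 higher in cKO as deposited, Ltc4s and Mgst3, and none was lower, beside 7.75% of all genes at least 0.1 higher. The choice of Ltc4s was made with its difference known. The list median was 0.088 against 0.00027 over all genes. With the shift removed it was also 2 of 4, Lta4h at 0.12 and Mgst3 at 0.18, beside 11.5% of the genes with an estimate. Among the other eicosanoid genes 6 of 14 were measured, and 4 were at least 0.1 higher as deposited, beside the same 7.75% of all genes: Ptgs1 (cyclooxygenase 1) at 0.28, Hpgd (which degrades prostaglandins) at 0.21, Tbxas1 at 0.20 and Mgst1 at 0.11. With the shift removed it was 2 of the 5 with an estimate, Hpgd at 0.21 and Mgst1 at 0.15, beside 11.5% of genes, while Ptgs1 was at 0.050. Hpgd was above zero in 8 of 509 fl/fl cells. Of the 10 measured annexins and S100 partners 2 were at least 0.1 lower, Anxa3 at -0.12 and Anxa4 at -0.13, and none was higher, beside 4.30% of all genes at least 0.1 lower. Anxa4 was at 0.038 with the shift removed, which could not be estimated for Anxa3. In Tumor epithelial-like cells 8 of those 10 were at least 0.1 higher and 1 lower as deposited, with a median of 0.31, in a class where 28.0% of all genes were at least 0.1 higher and 11.8% lower. The shift could be estimated for only 1 of these 10 genes, which was at 0.051 with it removed. Lists were drawn up with earlier results known, and these counts rest on 1 library per genotype.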

How the data were processed

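Scaled scores per gene and cell, and UMAP coordinates (also scores), were deposited by the authors for both libraries in shared tables. Per the submitters' processing notes, Cell Ranger 3.0.0, Seurat 3.1.4 and the mm10/GRCm38 build were used; how cells were filtered, normalized and the libraries joined is not given in the sources used here. Values stop at 10, and no UMI counts were analysed here. Cells were reclustered (scanpy 1.11.5 on 30 principal components, 15 neighbours, Leiden resolution 1). A cluster was named from at least 3 markers whose mean stood at least 0.5 above the other cells, with the next class under 0.5 times that. Its own markers also had to be among the 10 leading genes, at least as many as those of any other class. For these rules the Neutrophil and Neutrophil precursor lists counted as 1 class, as did the DC lists. The margin was therefore not applied between precursor and mature neutrophils, and the list with the higher mean gave the name. Cells with markers of 2 classes, 289 fl/fl and 225 cKO, were kept as possible doublets. The cKO shift was the 0.3 quantile over the 30 nearest cKO cells of the cluster; the second form used 50 cells and a quantile set by the fl/fl share at zero. The estimate was tried on simulated data whose shift followed the same principal components that defined the neighbours. That trial cannot tell how well the estimate works on the cKO values. The estimate also cannot tell a shift from a change shared by most neighbouring cKO cells. Intervals are exact binomial (Clopper-Pearson, 95%), and differences were counted from 0.1. Genes named are the members, the measured genes of the lists and, per member, the 5 genes most alike over clusters. The members, lists and tests were chosen with earlier results of these data known. Alternatives tried were other clusterings, doublets, thresholds, the shift, class makeup, shared barcodes, depth and clustering without the members.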

Additional observations from a re-analysis of the deposited data

How the results depend on the processing

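No paired analysis was possible because each genotype had 1 library. Over 27 class shares and 189 alternatives 157 stayed within their interval and 32 moved. None was counted as reversed, but a single share has no sign to reverse. Over 27 differences and 237 alternatives 220 stayed and 6 were counted as reversed. Small differences that changed sign were not all counted as reversed. Cysltr1 in Neutrophil-like cells, for example, was -0.042 as deposited, and 0.076 and 0.020 in the 2 forms with the shift removed. Counting only cells at least 1 SD above the zero level gave, for Anxa1, 73.6% (Neutrophil precursor-like), 21.9% (Neutrophil-like), 20.2% (Tumor epithelial-like), 8.64% (Monocyte-like), 5.41% (DC-like), 2.75% (Macrophage-like) and 1.26% (NK-like), and in Macrophage-like cells 17.9% for Ltc4s and 22.2% for Cysltr1. In cells with 100 to 300 genes above zero, chosen after seeing the data, Anxa1 was at 85.4%, 38.7%, 43.4%, 56.2%, 27.7% (DC-like) and 17.6% (NK-like), in the same order; Ltc4s at 27.8% and Cysltr1 at 35.4% of Macrophage-like cells, and Cysltr1 at 21.3% of DC-like cells. In Monocyte-like cells Anxa1 was at 55.6% with resolution 2, 53.3% with 15 principal components and 53.2% with the members left out of the clustering, and Cysltr1 at 18.9% without shared barcodes (the latter 2 also added after seeing the data). With the shift removed, in its first and second form, differences reversed for Ltc4s in Macrophage-like cells (-0.045 and -0.10), Cysltr1 in DC-like cells (-0.088 and -0.14) and Anxa1 in Neutrophil-like cells (-0.097 and -0.099). Cysltr1 was at -0.15 in Macrophage-like cells in the first form and -0.17 in Monocyte-like cells in the second. Clusters of the deposited UMAP gave 0.24 for Ltc4s in Macrophage-like and 0.30 for Anxa1 in Neutrophil-like cells. Anxa1 in Neutrophil precursor-like cells was at 0.64 with 15 principal components and 0.13 with the fl/fl makeup. Apart from the subtraction itself and the makeup, the causes were not tested. Depth in UMIs is unknown, so shares rest on genes above zero, and a cell at the zero level may still have the transcript.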

Other observations

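Of the genes of prostaglandin and thromboxane synthesis, Ptgs2, the inducible cyclooxygenase, was above zero in 126 of 341 fl/fl cells (37.0%) of the unnamed cluster led by Vim, Atf3 and Fth1, and in 6 of the 19 whose barcode was not found in both libraries. It was also above zero in 54 of 283 mature Neutrophil-like cells (19.1%). It was above zero in 44 of 256 Arg1-led (17.2%) and 19 of 253 C1q-led Macrophage-like cells (7.51%), and in 1 of 493 Neutrophil precursor-like cells. Ptgs1, the constitutive form, was above zero in 117 of 509 Macrophage-like cells (23.0%), in 96 of 493 Neutrophil precursor-like cells (19.5%) and in 8 of 283 mature ones (2.83%). Tbxas1, the thromboxane synthase, was above zero in 115 of 256 Arg1-led (44.9%) and 96 of 253 C1q-led Macrophage-like cells (37.9%).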
